A study of Mus musculus with 27 samples.

Results

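The Gadd45 (growth arrest and DNA damage inducible 45) family of the mouse has 3 genes, Gadd45a, Gadd45b and Gadd45g, and their RNA was followed through every RNA-seq library of a study of Gas41 in J1 mouse embryonic stem cells (mESCs). The members were found by gene symbol, 3 of the 27080 genes listed in the count tables, and the family was chosen by its CPM (a gene's counts scaled to a common library total) across the groups, which was known beforehand. Gas41, encoded by Yeats4, is a subunit shared by the chromatin remodeling complexes that place the histone variant H2A.Z, and the study asked what its loss does to gene expression in mESCs. RNA-seq covered 12 libraries in 5 groups, and 15 ChIP-seq samples of the series were not analysed here.

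The J1 line was kept on gelatin, without feeder cells, in medium with serum and LIF, the cytokine that holds mESCs undifferentiated. For the knockdown (KD) comparisons, cells received a lentivirus with a control shRNA (shCon, 3 libraries) or with 1 of 2 shRNAs to Gas41, shGas41-1 (3 libraries) and shGas41-2 (2 libraries), and were selected with puromycin and harvested 8 days after infection. For the differentiation comparison, cells labelled with the same control shRNA were kept with LIF (shCon_EB_D0, 2 libraries) or grown without LIF as embryoid bodies (EBs) for 6 days (shCon_EB_D6, 2 libraries). All groups thus carry an shRNA, and none is untreated. These are selected pools of 1 cell line, and no label says whether the libraries of a group came from separate cultures, so the errors below measure the spread between libraries. Values of the same shCon libraries entered both KD comparisons, which are therefore not independent of each other.

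GADD45 proteins are small and acidic, have no known enzyme activity, and act by binding partners. They bind and activate the kinase MEKK4 upstream of p38 and JNK, bind the cell cycle proteins PCNA, p21 and the CDK1-cyclin B complex, and bring DNA repair enzymes such as TDG to methylated DNA. Gadd45a is a textbook target of p53, Gadd45b responds to NF-kB and TGF-beta signalling, and Gadd45g is switched on in neural precursors together with proneural genes of the basic helix-loop-helix family.

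The 3 genes are short and lie on different chromosomes of the mm9 assembly (GENCODE vM1 annotation). Gadd45a (ENSMUSG00000036390) is at chr6:66985090-66987451 on the minus strand, Gadd45b (ENSMUSG00000015312) at chr10:80392836-80394949 on the plus strand, and Gadd45g (ENSMUSG00000021453) at chr13:51942047-51943837 on the plus strand. Their coding sequences span 495, 480 and 477 bases in the same order. None of the 1666, 1070 and 1026 stretches of 50 bases in their merged exons occurred exactly in a coding transcript of another gene. Reads with mismatches, reads across exon junctions and noncoding genes were not checked. Gadd45a overlaps an antisense gene, E230016M11Rik, over 337 exon bases, 19.1% of its exon length. The kit used does not mark strand and the strand setting of the counting is not given in the sources used here, so reads of the overlap cannot be told apart. E230016M11Rik itself held 5 to 44 counts per library, against 711 to 1524 for Gadd45a.

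The sequence just upstream of each gene is shown because the members differed in level and in change while their promoters share several short elements. Each run is on the gene's strand, 5′ to 3′, from the RefSeq promoter table (GRCm38.p6), and was placed on mm9 by an exact match that occurred once per gene. Positions are counted back from the RefSeq start of transcription. Capitals mark the CCAAT box (CCAAT or ATTGG), the octamer bound by POU factors (ATGCAAAT or ATTTGCAT), the TATA box (TATAAA), the E-box (CACGTG) and the GC box (GGGCGG or CCGCCC), with both strands searched. The Gadd45a run covers chr6:66987452-66987651 and stops at position -51, since the GENCODE annotation starts the gene 50 bases further upstream than RefSeq. The Gadd45b run covers chr10:80392586-80392835 and the Gadd45g run chr13:51941794-51942043, both up to position -1.
Gadd45a: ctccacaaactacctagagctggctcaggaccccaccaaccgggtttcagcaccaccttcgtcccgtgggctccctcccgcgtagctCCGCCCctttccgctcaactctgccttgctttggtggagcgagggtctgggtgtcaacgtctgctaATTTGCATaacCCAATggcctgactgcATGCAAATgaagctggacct
Gadd45b: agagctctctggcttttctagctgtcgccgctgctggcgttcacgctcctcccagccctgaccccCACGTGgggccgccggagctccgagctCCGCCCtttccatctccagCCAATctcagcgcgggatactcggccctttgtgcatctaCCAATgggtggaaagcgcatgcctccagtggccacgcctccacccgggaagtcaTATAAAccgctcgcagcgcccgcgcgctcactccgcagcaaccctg
Gadd45g: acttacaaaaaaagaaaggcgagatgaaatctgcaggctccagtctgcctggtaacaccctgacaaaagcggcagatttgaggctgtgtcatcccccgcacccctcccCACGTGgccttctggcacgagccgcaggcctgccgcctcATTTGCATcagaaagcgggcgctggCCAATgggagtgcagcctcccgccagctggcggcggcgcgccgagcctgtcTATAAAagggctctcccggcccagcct

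A CCAAT box was present upstream of all 3 genes, in Gadd45b at 2 places, and 33.8% of 32851 promoter windows of 250 bases in the same table held one. Gadd45a carried an octamer on each side of its CCAAT box, starting at -97 and at -70, and Gadd45g carried an octamer starting at -103, upstream of its CCAAT box at -78. An octamer was rare among all promoters (1.60%), and 0.767% of them held it together with a CCAAT box. Gadd45b had no octamer in this window. A TATAAA stood at -46 in Gadd45b and at -27 in Gadd45g (12.4% of all promoters), and both genes also held a CACGTG (6.02%). A GC box was found in Gadd45a and Gadd45b (32.7%). The cAMP response element TGACGTCA, present in 1.55% of promoters, had no match in the 3 windows. These are letter matches, and binding at them was not measured here.

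**Figure D1:**
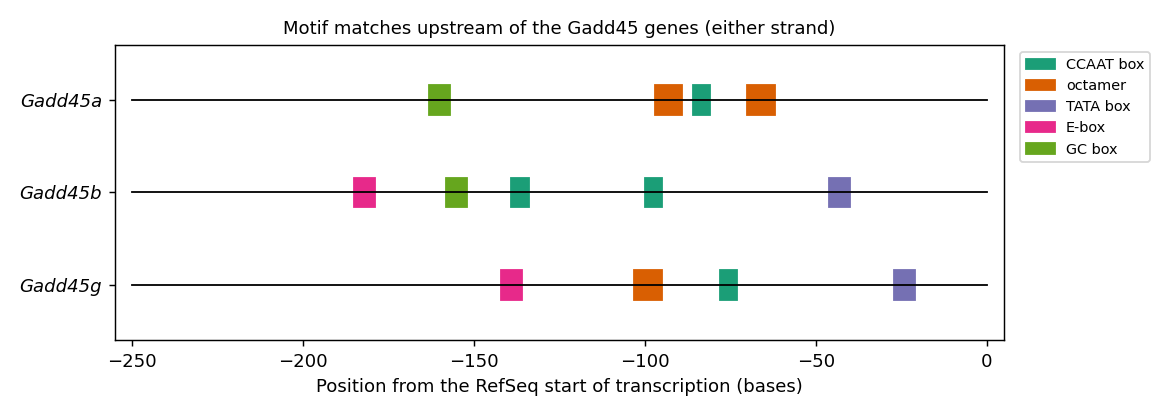
Motif matches in the 250 bases upstream of each Gadd45 gene; the x axis is the position in bases from the RefSeq start, each row is a gene and each coloured box a match on either strand. Gadd45a and Gadd45g share a CCAAT box with an octamer beside it, and Gadd45b and Gadd45g share a TATA box and an E-box.

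The libraries held 59224537 to 81524773 counts each. Libraries of 1 group differed by more than sampling noise (chi-square over its degrees of freedom, 29.2 to 236), and shGas41-1 replicate 3 stood farthest from the other libraries of its group (144 and 236), so log2 fold changes without it are given for the members and for the genes named as called with shGas41-1. The targeted gene followed the labels: Yeats4 was at 63.2, 54.5 and 52.1 CPM in shCon, at 3.50, 4.42 and 4.79 CPM in shGas41-1, and at 8.68 and 7.68 CPM in shGas41-2. In the fit, 7.93% of the control level remained with shGas41-1 and 15.3% with shGas41-2. At EB day 6, Yeats4 was at 46.1 and 50.2 CPM, against 43.6 and 45.8 CPM at day 0.

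In control mESCs the family was mostly Gadd45a. Scaled for exon length (RPKM, which is CPM per kilobase of exon), shCon held 11.04 ± 1.63 of Gadd45a, 4.29 ± 0.672 of Gadd45b and 0.278 ± 0.170 of Gadd45g (mean ± SD, n = 3). Per merged exon length, Gadd45a exceeded Gadd45b 2.55-fold to 2.61-fold in the 3 shCon libraries, and Gadd45b exceeded Gadd45g 11.3-fold to 35.9-fold. The longest Gadd45a transcript has 1223 bases against 1764 in its merged exons, so ratios and shares across members depend on the length used. The order Gadd45a, Gadd45b, Gadd45g held in each of the 12 libraries.

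Gadd45g was the member with the largest difference between KD and control libraries. This gene encodes the family member best known from neurogenesis and from cytokine responses, and in shCon it was close to silent, at 0.523, 0.332 and 0.124 CPM in replicates 1 to 3. Those levels rest on 31, 23 and 9 counts, and the exact 95% Poisson interval of the lowest library ran from 0.0568 to 0.236 CPM (counting error only, which takes reads as independent). In shGas41-1 it stood at 4.71, 2.86 and 4.42 CPM (354, 224 and 286 counts), and in shGas41-2 at 1.40 and 1.34 CPM (114 and 107 counts). Every KD library was above every shCon library. Of all genes tested, 42.2% with shGas41-1 and 50.2% with shGas41-2 had groups that do not overlap, in either direction. The 2 shRNA groups did not overlap each other either, and the share of all genes with this feature was not computed. Group means were 0.326 ± 0.200 CPM in shCon (SD, n = 3), 4.00 ± 0.994 CPM in shGas41-1 (SD, n = 3) and 1.37 ± 0.0446 CPM in shGas41-2 (SD, n = 2).

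The fitted log2 fold change of Gadd45g was 3.71 with shGas41-1 (SE 0.44, 95% interval 2.71 to 4.72), a 13.1-fold higher level. It was 2.17 with shGas41-2 (SE 0.46, 95% interval 1.11 to 3.22), a 4.49-fold higher level. A gene is called here when its log2 fold change is 1 or more in size and its false discovery rate (FDR) is 0.05 or less. By this rule Gadd45g was called up with each shRNA, as were 7.90% of 18274 genes tested with shGas41-1 and 3.96% of 18405 with shGas41-2, and 3.55% of 18049 genes were called up and 0.609% down with both. The family was chosen with its levels in these libraries known, so the call is a description and no p is given for any member. In order of log2 fold change, Gadd45g came 66 of 18274 with shGas41-1 and 267 of 18405 with shGas41-2. Without shGas41-1 replicate 3 its log2 fold change was 3.59, and those of Gadd45b and Gadd45a were 0.72 and -0.17. The call with shGas41-2 was lost when either shGas41-2 library or shCon replicate 2 was left out, while the log2 fold change stayed at 2.14, 2.18 and 2.19, and the call with shGas41-1 held without each library in turn.

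Set directly against each other, the shRNAs differed for Gadd45g by a log2 of 1.55 (SE 0.41, 95% interval 0.64 to 2.46), 2.93-fold higher with shGas41-1, and by 1.43 without shGas41-1 replicate 3. The quasi-likelihood fit called 0 of 19146 genes between the shRNAs (percent called 0), with 1348 at an unadjusted p under 0.05. DESeq2 called 39 up and 32 down, and their share of the genes tested was not computed. Of 12 alternatives, DESeq2 was the only 1 to call Gadd45g between the shRNAs (up). Such a call of a chosen member is a description. Yeats4 itself was lower with shGas41-1 than with shGas41-2 by a log2 of -0.94 (95% interval -1.34 to -0.54).

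Gadd45b, the member that responds to NF-kB and TGF-beta, was higher in the KD libraries by a smaller step. It stood at 6.40, 5.06 and 4.82 CPM in shCon, at 10.7, 6.82 and 8.88 CPM in shGas41-1 and at 7.21 and 6.80 CPM in shGas41-2. The lowest KD library was above the highest shCon library, and the 2 shRNA groups overlapped. Its log2 fold change was 0.78 with shGas41-1 (SE 0.21, 95% interval 0.30 to 1.25) and 0.45 with shGas41-2 (SE 0.16, 95% interval 0.08 to 0.82), or 1.71-fold and 1.37-fold. It was not called with either shRNA. Groups that do not overlap were common among all genes tested, at 42.2% with shGas41-1 and 50.2% with shGas41-2, so this feature of Gadd45b and Gadd45g is shared with a large part of the transcriptome. Between the shRNAs, Gadd45b differed by a log2 of 0.33 (95% interval -0.14 to 0.81).

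Gadd45a, the p53-responsive and most abundant member, differed least between KD and control libraries. It was at 22.7, 18.4 and 17.3 CPM in shCon, at 17.7, 16.3 and 16.9 CPM in shGas41-1 and at 18.02 and 17.3 CPM in shGas41-2. The groups overlapped, with shCon replicate 1 the highest. The log2 fold change was -0.12 with shGas41-1 (95% interval -0.46 to 0.22) and -0.06 with shGas41-2 (95% interval -0.38 to 0.26), intervals that leave out a change of 2-fold in either direction. The 2 shRNAs differed by a log2 of -0.05 (95% interval -0.39 to 0.28). Gadd45a was not called in either comparison, and 80.1% of genes tested with shGas41-1 and 86.0% with shGas41-2 had a larger change in size.

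**Figure D2:**
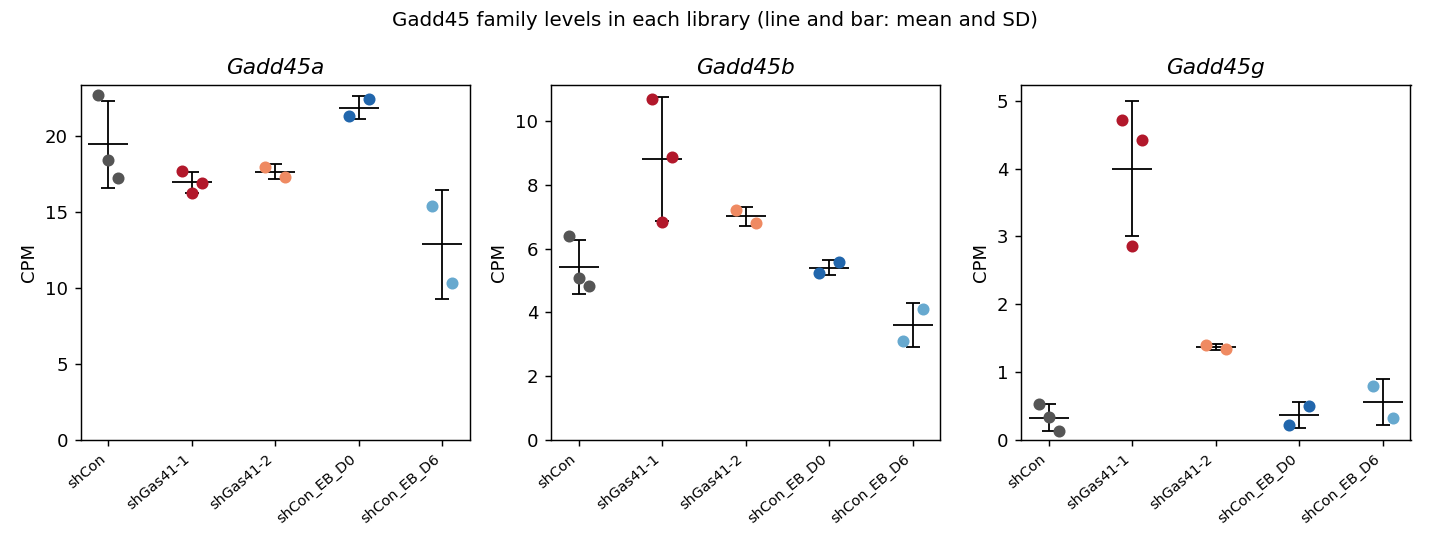
CPM of each Gadd45 gene (y axis, linear and from 0, with its own scale per panel) in the 12 libraries; each point is a library, the horizontal line the group mean and the bar 1 SD. The shGas41-1 libraries of Gadd45g lie between 2.86 and 4.71 CPM and the shGas41-2 libraries at 1.34 and 1.40 CPM, above the 0.124 to 0.523 CPM of shCon, while the shCon and KD points of Gadd45a overlap.

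EB differentiation gave another picture, with each member within a 2-fold step of day 0 in the fit. Gadd45a was at 21.3 and 22.4 CPM at day 0 and at 15.4 and 10.3 CPM at day 6, a log2 fold change of -0.68 (SE 0.19, 95% interval -1.13 to -0.23). Gadd45b was at 5.23 and 5.57 CPM at day 0 and at 3.11 and 4.09 CPM at day 6, a log2 fold change of -0.50 (SE 0.21, 95% interval -0.999 to 0.001). Both day 6 libraries were below both day 0 libraries for these members, as 82.7% of 18287 genes had EB groups that do not overlap. None of the 3 members was called at day 6, against 31.3% of the genes tested.

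Gadd45g overlapped between day 0 (0.224 and 0.502 CPM, from 16 and 32 counts) and day 6 (0.799 and 0.320 CPM, from 54 and 22 counts). Its log2 fold change of 0.71 had a 95% interval from -0.73 to 2.15, and became -0.07 without shCon_EB_D6 replicate 2. With 2 libraries a group, the interval left room for a level up to 4.45-fold higher. The Gadd45a value ranged from -0.98 without shCon_EB_D6 replicate 2 to -0.42 without shCon_EB_D6 replicate 3.

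**Figure D3:**
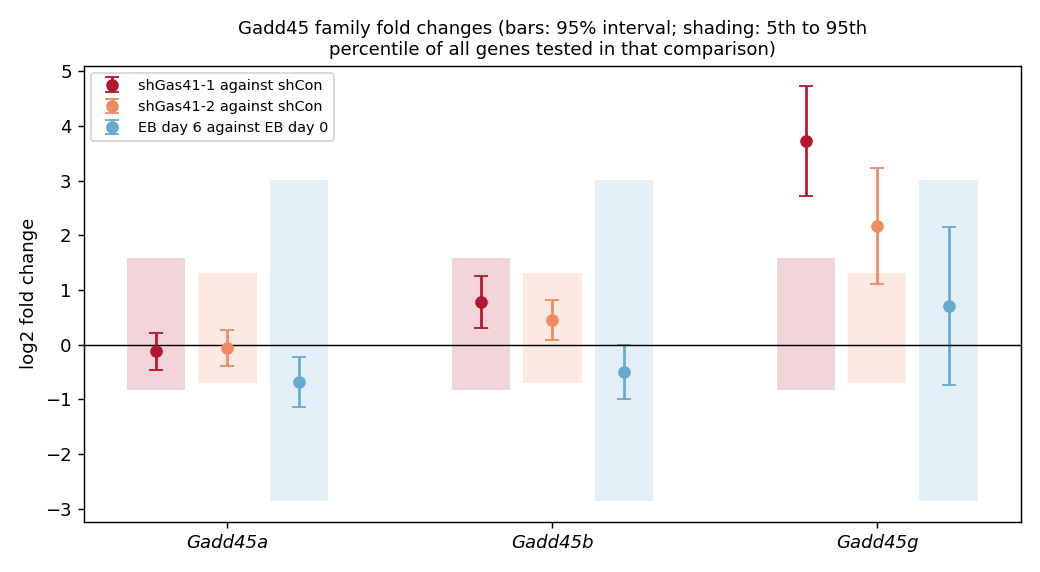
Fitted log2 fold change (y axis) of each Gadd45 gene in the 3 comparisons, shown by colour; points are the estimates, bars the 95% interval, and shaded boxes the range from the 5th to the 95th percentile of all genes tested in that comparison. The points of Gadd45g at 3.71 and 2.17 lie above the boxes of both KD comparisons, and the other 7 points lie inside theirs.

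Over the 5 groups, the mean CPM of Gadd45a ran from shCon_EB_D0 (21.9) through shCon (19.5), shGas41-2 (17.7) and shGas41-1 (16.97) to shCon_EB_D6 (12.9), and among neighbours only shGas41-1 and shCon_EB_D6 did not overlap. That of Gadd45b ran from shGas41-1 (8.80) through shGas41-2 (7.01), shCon (5.43) and shCon_EB_D0 (5.40) to shCon_EB_D6 (3.60). Its neighbours separated between shGas41-2 and shCon and between shCon_EB_D0 and shCon_EB_D6. Gadd45g ran from shGas41-1 (4.00) through shGas41-2 (1.37), shCon_EB_D6 (0.559) and shCon_EB_D0 (0.363) to shCon (0.326), with overlap between the last 3 groups. The 2 undifferentiated control groups, shCon and shCon_EB_D0, overlapped for every member. Groups that do not overlap were common among all genes, at 50.2% for shGas41-2 against shCon and 82.7% for EB day 6 against day 0. That share was not computed for the other neighbours named here, so these separations are a description.

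The make-up of the family shifted with these levels. In summed RPKM, Gadd45g was 1.71% ± 0.848 of the family in shCon (SD, n = 3), 16.9% ± 2.25 in shGas41-1 (SD, n = 3) and 6.97% ± 0.00314 in shGas41-2 (SD, n = 2). The share of Gadd45b was 27.5% ± 0.299, 34.5% ± 2.98 and 33.1% ± 0.280 in the same groups, and that of Gadd45a 70.8% ± 0.700, 48.6% ± 4.92 and 59.9% ± 0.277. At EB day 6, Gadd45g was 4.32% ± 1.99 of the family, against 1.80% ± 0.902 at day 0 (SD, n = 2 each). The summed RPKM of the family was 13.7 to 18.4 in shCon, 17.1 to 22.5 in shGas41-1, 16.3 and 17.1 in shGas41-2, 16.4 and 17.5 at EB day 0, and 9.36 and 11.9 at EB day 6. Thus the shCon and KD sums overlapped, and both day 6 sums were the lowest of all 12 libraries.

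**Figure D4:**
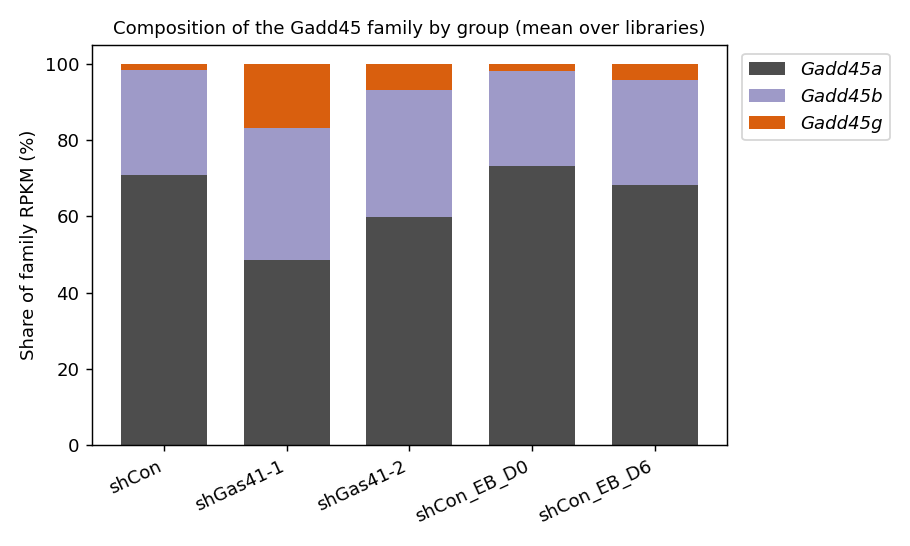
Mean share (y axis, %) of each Gadd45 gene in the summed RPKM of the family, by group; bars are means over the 2 or 3 libraries of a group and add to 100. The Gadd45g segment is 1.71% in shCon, 16.9% in shGas41-1 and 6.97% in shGas41-2.

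Other genes of the pathway were followed in 9 lists with 114 genes in all. With shGas41-1, 7 were called up and 2 down of 107 tested, and with shGas41-2, 3 up and 1 down of 106. Without shGas41-1 replicate 3, the first counts were 9 and 2, and the number called down with shGas41-1 was 6 without shGas41-1 replicate 2, 4 without shCon replicate 1 and 1 without shCon replicate 3. Of the calls with shGas41-2, 1 up and 0 down were left without either shGas41-2 library, 1 up was left without shCon replicate 2, and 5 up and 2 down were made without shCon replicate 1. Their median log2 fold changes were -0.10 and -0.02, against 0.02 and -0.01 over all genes. Over all genes tested, the share called up was 7.90% for shGas41-1 and 3.96% for shGas41-2, and the share called down 2.40% and 0.869%, so the list counts were near the background. Both shRNAs called 4 of the list genes in the same direction: Cdkn1c, Neurog1 and Dll1 up and Neil1 down.

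Direct partners of GADD45 proteins came first. Of 10 genes for proteins that bind them, among them Map3k4 (MEKK4), Pcna, Cdk1, Ccnb1, Tdg and Gadd45gip1, 0 were called in the KD comparisons, with log2 fold changes from -0.93 to 0.24 with shGas41-1 and from -0.45 to 0.20 with shGas41-2. The lowest of these with both shRNAs was Cdkn1a, which encodes the CDK inhibitor p21 and was named after its values were seen. Its log2 fold change was -0.93 with shGas41-1 (SE 0.17, FDR 0.00782) and -0.45 with shGas41-2 (SE 0.13, FDR 0.0652), below the size needed for a call. Downstream, 0 of 12 tested kinases of the p38 and JNK cascade were called with either shRNA, with log2 fold changes from -0.68 to 0.14 and from -0.79 to 0.20.

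Among 10 cell cycle partners, Cdkn1c, which encodes the CDK inhibitor p57, was the 1 gene called. It rose from 16.2, 15.9 and 10.7 CPM in shCon to 81.5, 99.2 and 67.2 CPM in shGas41-1 and to 52.3 and 73.7 CPM in shGas41-2. The log2 fold change was 2.61 (SE 0.21, FDR 0.00147) and 2.23 (SE 0.21, FDR 0.00149). All KD libraries were above all shCon libraries, and 42.2% and 50.2% of all genes tested had groups that do not overlap. The calls of Cdkn1c held in each of the 10 and 9 alternatives run for the shRNAs, among them the fit without shGas41-1 replicate 3 (2.70).

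Of 18 DNA demethylation and repair partners, Neil1, a DNA glycosylase of base excision repair, fell with both shRNAs. It was at 4.88, 4.56 and 4.92 CPM in shCon, at 1.38, 1.89 and 1.61 CPM in shGas41-1 and at 2.20 and 2.23 CPM in shGas41-2. The log2 fold change was -1.47 (SE 0.19, FDR 0.00299) and -1.03 (SE 0.16, FDR 0.00888), and the call with shGas41-2 was lost without either of its libraries (log2 fold change -1.004 without replicate 1 and -1.06 without replicate 2). Without shGas41-1 replicate 3 the first value was -1.51. The TET dioxygenases, TDG and the APOBEC deaminases of this list were not called in the KD comparisons.

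The lists of upstream regulators held almost no calls in the KD comparisons. Of 18 transcription factors known to act on Gadd45 genes (such as Trp53, Foxo3, Egr1, Brca1 and the NF-Y subunits that bind CCAAT boxes), 0 were called with either shRNA. Of 15 p53 target genes, 0 were called up, and 1, the BH3-only gene Pmaip1, was called down with shGas41-1 (log2 fold change -1.04, FDR 0.0257; named after its values were seen) and 0 with shGas41-2. Pmaip1 was at 19.6, 22.3 and 40.4 CPM in shCon and at 14.1, 13.4 and 10.5 CPM in shGas41-1, and its call was lost without shCon replicate 3 (-0.67), without shGas41-1 replicate 1 (-1.10) or 3 (-0.97), and with a replicate block (-0.97). Among the 15 p53 targets, 11 had a log2 fold change above 0 with shGas41-1, with a median of 0.29 against 0.02 over all genes. With shGas41-2 it was above 0 for 10, with a median of 0.06 against -0.01. Of 13 integrated stress response genes and 13 tested immediate early genes, 0 were called with either shRNA.

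The proneural and Notch list was where most calls fell. With shGas41-1, 6 of 11 tested genes rose, with a median log2 fold change of 1.95, and with shGas41-2, 2 of 10 rose, with a median of 0.34. Of all genes tested, 7.90% and 3.96% were called up, and the medians were 0.02 and -0.01. The gene lists were chosen with earlier results of these data known, so these counts are a description. A link between this list and Gadd45g was not tested. Neurog1, a proneural transcription factor, held 2, 0 and 2 counts in shCon, 36, 88 and 27 counts in shGas41-1 and 16 and 26 counts in shGas41-2. Per total count this is 34.8 times the shCon level (exact 95% interval 13.3 to 129, counting error only) and 13.1 times (4.74 to 50.1), and the FDR was 0.00346 and 0.025. Dll1, a Notch ligand of committing neural precursors, rose from 0.371, 0.462 and 0.539 CPM to 2.86, 2.27 and 1.58 CPM with shGas41-1 and to 1.37 and 0.998 CPM with shGas41-2. Its log2 fold change was 2.35 (SE 0.28, FDR 0.00263) and 1.44 (SE 0.29, FDR 0.0225). The calls of Neurog1 and Dll1 with shGas41-2 were lost without either shGas41-2 library or shCon replicate 2, with log2 fold changes of 3.11 to 4.00 for Neurog1 and 1.21 to 1.64 for Dll1. Without shGas41-1 replicate 3, the values with shGas41-1 were 5.24 for Neurog1 and 2.51 for Dll1, and both were called.

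Among the other genes of this list called with shGas41-1 were the proneural factors Neurog3 and Atoh1 and the zinc finger factor Insm1. Neurog3 went from 0.669 ± 0.0415 to 2.46 ± 0.663 CPM (SD, n = 3 each; edgeR FDR 0.00295) and Insm1 from 0.139 ± 0.0858 to 1.15 ± 0.363 CPM (SD, n = 3 each; edgeR FDR 0.00444). Atoh1 held 6, 0 and 0 counts in shCon and 38, 30 and 16 counts in shGas41-1. All of these levels were low. Without shGas41-1 replicate 3 the log2 fold changes were 2.07 for Neurog3, 3.33 for Insm1 and 3.82 for Atoh1, all called. The Atoh1 call was lost without shGas41-1 replicate 1 (3.39), shCon replicate 2 (3.04) or shCon replicate 3 (3.01). Whether the smaller number of calls with shGas41-2 differs from that with shGas41-1 was not tested.

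**Figure D5:**
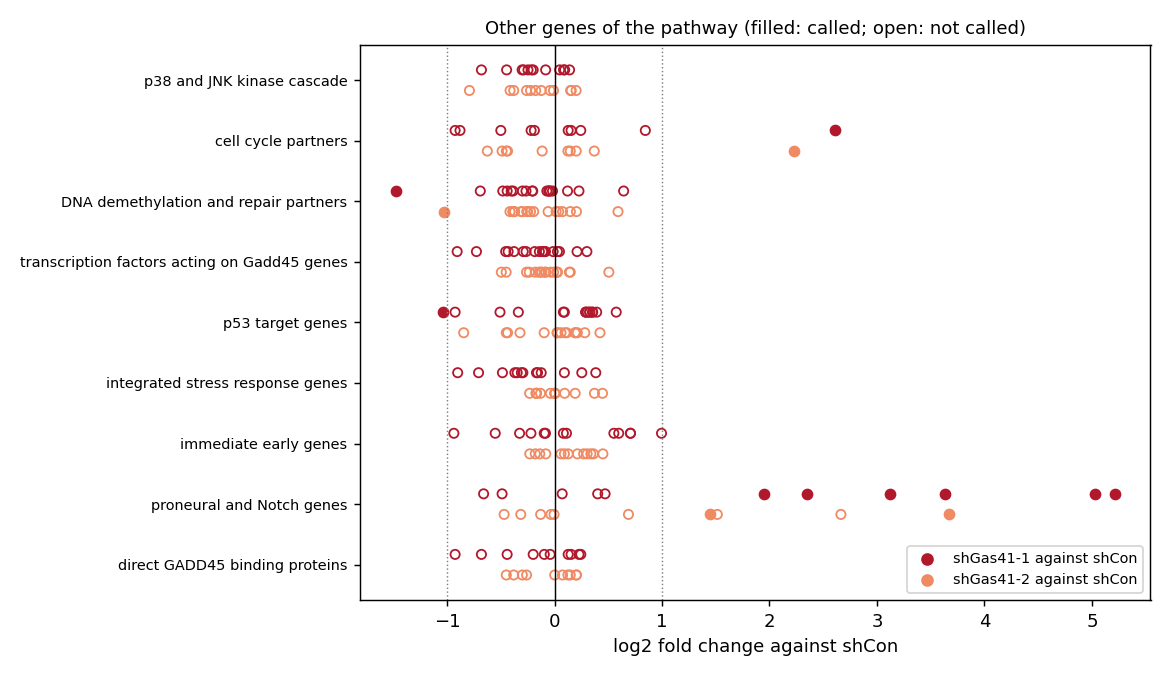
Log2 fold change against shCon (x axis) of the tested genes in 9 pathway lists (rows), for shGas41-1 (dark red) and shGas41-2 (orange); filled points are called, open points are not, and dotted lines mark a log2 fold change of 1 in size. Filled points to the right of 1 lie in the proneural and Notch row, 6 with shGas41-1 and 2 with shGas41-2, apart from Cdkn1c among the cell cycle partners.

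During EB differentiation 20 genes of the same lists were called up and 17 down of 106 tested, shares near those of all genes (16.6% up and 14.7% down), and their median log2 fold change was -0.03. Without shCon_EB_D0 replicate 3, 10 were called down. Of 15 immediate early genes 7 rose, led by Egr3 (log2 fold change 4.37, FDR 0.00273), Ier5 (4.16, FDR 0.000107) and Egr2 (3.57, FDR 0.00357). Of 18 demethylation and repair partners 6 fell and 1 rose. Tet2, which oxidises 5-methylcytosine, fell from 228 ± 7.30 to 5.85 ± 1.67 CPM (SD, n = 2 each; edgeR FDR 8.37e-06), and Tet1 fell too, with a log2 fold change of -2.41 (FDR 0.000271). In the kinase cascade 3 genes rose, namely Mapk12 (2.86, FDR 6.6e-05), Map3k5 (1.26, FDR 0.000963) and Mapk11 (1.14, FDR 0.00166), which encode 2 p38 isoforms and the kinase ASK1.

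Of the direct binders, 0 of 10 were called at EB day 6. The transcription factor list had Stat3 down (-2.31, FDR 7.49e-06) and Foxo4 (1.72, FDR 3.72e-05) and Smad3 (1.24, FDR 0.000363) up. The p53 targets had Pmaip1 up (2.63, FDR 9.89e-05) and Eda2r and Mdm2 down (-1.32, FDR 0.00114, and -1.07, FDR 0.0013). The stress response list split into 3 up, with Vldlr (3.81, FDR 0.00021) and Ddit4 (2.97, FDR 0.000201) first, and 4 down, with Atf5 first (-2.21, FDR 1.17e-05). The cell cycle list had Cdkn2a and Cdkn2b down (-1.08, FDR 0.00431, and -1.03, FDR 0.0304). In the proneural and Notch list Dll1 (4.59, FDR 0.00219), Dll3 (3.80, FDR 0.00158) and Hes6 rose and Neurod1 (-2.56, FDR 0.00104) and Neurog3 fell. Neurog3 thus stood higher in the shGas41-1 libraries and lower in EBs, each against its own control. Dll1 was at 7.58 and 33.2 CPM in the 2 day 6 libraries, a wide spread, and its call was lost without shCon_EB_D0 replicate 3, where its log2 fold change was 4.87. Without that library the calls of Dll3 (3.97), Egr3 (4.45), Neurog3 (-2.29), Mapk11 (0.97), Mdm2 (-0.83), Cdkn2a (-0.92) and Cdkn2b (-0.70) were lost as well, and without shCon_EB_D6 replicate 3 those of Mdm2 (-0.99), Cdkn2a (-0.88) and Cdkn2b (-0.89).

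Cell type markers moved beside these values. The 9 markers of undifferentiated mESCs summed to 7187 to 7627 CPM in shCon, 6201 to 7106 CPM in shGas41-1, 6790 to 7007 CPM in shGas41-2, 6783 to 7154 CPM at EB day 0 and 2212 to 2397 CPM at EB day 6, with no marker at 0. Of the 9, Tfcp2l1, Klf4 and Esrrb fell with shGas41-1 and 0 were called with shGas41-2. For these 3 genes shGas41-1 replicate 3 was the lowest of the KD and shCon libraries. Without it the log2 fold changes were -1.33 for Tfcp2l1 (-1.55 with it), -1.01 for Klf4 (-1.13) and -0.81 for Esrrb (-1.04), the last no longer called. The Esrrb call was also lost without shGas41-1 replicate 1 (-1.12), shCon replicate 2 (-1.07) or shCon replicate 3 (-0.90), and that of Klf4 without shCon replicate 3 (-0.97). The 4 neuroectoderm markers listed summed to 289 to 294 CPM in shCon, 249 to 321 CPM in shGas41-1 and 335 to 342 CPM in shGas41-2. Most of this sum was Tubb3, at 277 to 283 CPM in shCon. Of these markers 1, Pax6, rose with shGas41-1 (log2 fold change 2.43, and 2.29 without shGas41-1 replicate 3). Of 6 trophectoderm markers, Gata3 was called up with both shRNAs (log2 fold change 4.30 and 3.26) and Cdx2 with shGas41-1 (2.50). Both kept their calls without shGas41-1 replicate 3 (4.55 and 2.54). The list's sum was 22.4 to 27.6 and 23.8 to 26.7 CPM against 30.5 to 44.0 CPM in shCon. Gata3 (0.0829 to 0.186 CPM in shCon) and Cdx2 (0.0690 to 0.355 CPM) were a small part of it, so the sum follows other markers. All marker sums weigh the abundant markers most. Endoderm markers summed to 2.79 to 3.48 CPM in shCon, 3.57 to 6.76 CPM in shGas41-1 and 4.78 to 5.74 CPM in shGas41-2, mesoderm markers to 11.9 to 15.1, 5.18 to 9.63 and 9.72 to 11.7 CPM, and primed epiblast markers to 74.3 to 86.5, 61.3 to 105 and 80.6 to 81.6 CPM. Fibroblast markers summed to 6.32 to 19.8 CPM over these 8 libraries, with Postn at 0. With shGas41-1, 1 of 5 tested endoderm and 1 of 4 primed epiblast markers were called up (7.90% of all genes). In the same comparison 2 of 5 mesoderm and 1 of 3 fibroblast markers were called down (2.40%). With shGas41-2, 1 of 5 endoderm markers was called up (3.96%), and 0 primed epiblast, mesoderm or fibroblast markers were called. None of these calls held in every alternative run. In EBs, mesoderm markers went from 9.84 and 10.5 CPM at day 0 to 836 and 1306 CPM at day 6, and primed epiblast markers from 98.2 and 114 to 1028 and 1335 CPM. In bulk RNA a change in the share of a cell type and a change in RNA per cell cannot be told apart, and the part of these markers in the Gadd45g levels was not tested.

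By likeness of pattern, the genes nearest to each member were found among 12715 genes from the root mean square (RMS) difference of the 5 group means of log2(CPM + 1), each centred on its own mean. Nearest to Gadd45g were Aass, an enzyme of lysine breakdown (RMS 0.071), Pax6, a transcription factor of eye and neural development (0.090), Tdpoz4 (0.201), Il13ra1 (0.218) and Popdc3 (0.236). With a pseudocount of 0.1, which gives low values more weight, 1 of these 5, Popdc3, stayed among the nearest 5. Nearest to Gadd45b were Pcp4l1 (0.036), the splicing kinase Clk1 (0.049), Fam119b (0.050), Nr3c2 (0.054) and Pls1 (0.059), of which 2 stayed. Nearest to Gadd45a were Rab12 (0.015), Phf20 (0.021), Trappc8 (0.023), Kif20b (0.023) and Ankrd24 (0.025), of which 4 stayed. For the Gadd45g list, Aass, Pax6, Il13ra1 and Popdc3 had log2 fold changes of 2.43, 2.43, 1.73 and 2.84 with shGas41-1. With shGas41-2 they were 1.44, 1.17, 1.06 and 2.30. Tdpoz4, at 0.0803 CPM in shCon, had 4.59 and 3.55. The genes were picked for likeness over groups that include both KD groups, so their rises follow from the choice. The order is a description of 5 group means that share their libraries.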

How the data were processed

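RNA-seq of 12 libraries was used, grouped by the labels. The authors mapped reads to mm9 with TopHat2 2.0.10 and counted them per gene with HTSeq, and the deposited values are raw counts. The deposited log2 fold changes, p-values and FDR are the authors' own edgeR comparisons and were not used. Control columns headed ESC in the EB table were read as EB day 0. Of the columns of per-sample values, 0 were left unmapped.

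Tests were made here in R 4.3.3 with edgeR 4.0.16: filterByExpr (minimum count 10, minimum total 15), TMM, glmQLFTest, and FDR by Benjamini-Hochberg over all genes tested. Each comparison used its own groups only, and the 2 shRNAs were set against each other in a fit with shCon. A call needed a 2-fold change (log2 of 1) with FDR at most 0.05. All 3 members passed the filter in each comparison, Gadd45g in the KD fits with 9 counts in 1 shCon library. CPM is scaled to the library total, without TMM. RPKM divides CPM by the merged exon length (1764, 1266 and 1173 bases for Gadd45a, Gadd45b and Gadd45g). The SE of a log2 fold change was derived from the estimate and the F statistic of glmQLFTest, which moderates each gene's spread across genes. Intervals are 95% and cover the spread between libraries, except Poisson and count ratio intervals, which cover counting error only.

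The members and gene lists were chosen with earlier results of these data known. Genes named are the members, Yeats4, list genes called the same way with both shRNAs (at most 5 a list) or at EB day 6 (at most 3 a list, by size), and the 5 genes most like each member, without Gm or Rik names and with at least 1 CPM in a group; others are named as exceptions or as examples, and some list genes are counted but not reported here by name. Alternatives were library size alone, DESeq2 1.42.0, no filter, a replicate block and leaving out each library.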

Additional observations from a re-analysis of the deposited data

How the results depend on the processing

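Gadd45g was called up with shGas41-1 in all 10 alternatives and with shGas41-2 in 6 of 9, and Gadd45a and Gadd45b were called in none. These calls are a description, since the family was chosen by its levels in these libraries and the alternatives reuse the same counts. Of the members' fold changes, 115 values moved by less than 1 pooled SD of the libraries' log2 CPM and 2 by more, Gadd45a in EBs without shCon_EB_D6 replicate 2 and Gadd45b in EBs without shCon_EB_D6 replicate 3. The cause was not tested.

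Without 1 library at a time, the log2 fold change of Gadd45g was 3.30 to 4.205 with shGas41-1, 1.77 to 2.67 with shGas41-2, -0.07 to 1.40 in EBs and 1.43 to 1.76 between the shRNAs. That of Gadd45a was -0.21 to 0.00, -0.13 to 0.07 and -0.98 to -0.42 in the first 3, and that of Gadd45b 0.64 to 0.95, 0.38 to 0.59 and -0.72 to -0.30. Counts of genes called ranged from 905 to 1510 up and 290 to 549 down with shGas41-1 (1444 and 438 with all libraries), from 269 to 1174 up and 18 to 293 down with shGas41-2 (728 and 160), and from 2041 to 2946 up and 1669 to 3027 down in EBs (3030 and 2696). The up count with shGas41-1 fell to 947, 905 and 946 without shGas41-1 replicate 1, shCon replicate 2 or shCon replicate 3, and the down count to 290 without shCon replicate 3. With shGas41-2 the counts fell to 300 and 47, 269 and 18, and 397 and 68 without shGas41-2 replicate 1, shGas41-2 replicate 2 or shCon replicate 2, the down count fell to 105 without shCon replicate 3, and both rose to 1174 and 293 without shCon replicate 1. The EB down count fell to 1669 without shCon_EB_D0 replicate 3. Pathway list genes ranged from 6 to 9 up and 1 to 6 down with shGas41-1, 1 to 5 up and 0 to 2 down with shGas41-2, and 19 to 22 up and 10 to 17 down in EBs.

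Library size alone gave 246 genes down with shGas41-2. DESeq2 gave 39 up and 32 down between the shRNAs, against 0. TMM factors put Gadd45a at 21.0 CPM at EB day 0, against 21.9. Libraries with the same number were compared by the correlation of their deviations from the group mean. It was -0.39, 0.14 and 0.01 for shGas41-1, 0.34 and 0.24 for shGas41-2 and 0.05 for the EB groups. These values do not settle whether the libraries were paired, and the main fits took no pairing. With shGas41-2, the SE of Gadd45g was 0.46 in the main fit and 0.32 with a replicate block. With a replicate block, 1122 genes were up with shGas41-2 and 1 pathway gene was down with shGas41-1 (against 2), and Gadd45g stood at 3.75, 1.78 and 0.67 in the KD and EB comparisons. Low counts of Gadd45g limit its control level, and 2 libraries in 3 of the groups limit every comparison that uses them.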
